A study of Mus musculus with 6 samples.

Results

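Interferon-stimulated genes and the RNA sensors upstream of them were followed in 6 subcutaneous tumours of a mouse pancreatic cancer line. The rule for membership names the genes and uses no threshold on measured values, and the names were chosen with earlier results of these data known. The set holds 33 genes known to respond to type I interferon, of which 31 had at least 1 probe set annotated to that gene alone, out of 18194 genes so named on the array. Isg15, the ubiquitin-like modifier, had 1 probe set that was annotated to more than 1 gene, and Ifi44 had none in the annotation used here, so neither was analysed here. The remaining 31 genes comprise 6 sensors and other binders of foreign-type RNA, 9 signalling factors and regulators, and 16 effectors. Where a gene had several probe sets, the one with the highest mean signal was used.

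The tumours grew under the skin of the right back from KPC1199, a line of mouse pancreatic ductal adenocarcinoma. In the lactation group (3 mice) cells were given at pregnancy or at the start of nursing, and the labels do not say which applied to which mouse. The control group also had 3 mice and received the same cells. Tumours were taken 20 days after injection from mice of equal age. Strain and genotype of the hosts are not given in the sources used here, and all tumours came from 1 cell line. Each tumour was hybridised to 1 Affymetrix array, and the unit throughout is the MAS5 signal, a linear intensity per probe set. The labels call the arrays biological replicates, and 3 arrays a group limit the precision.

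Cells sense viral or misplaced RNA and DNA with receptors such as RIG-I and MDA5, which signal through the adaptor MAVS to switch on interferon genes. Secreted type I interferon binds its receptor on the same or neighbouring cells, where the kinases JAK1 and TYK2 are activated. A complex called ISGF3, of which STAT2 and IRF9 are parts, then binds interferon-stimulated response elements (ISREs) in the promoters of many genes. Interferon gamma acts mainly through GAS elements. In tumours, interferon-stimulated genes can be transcribed by cancer cells as well as by immune and stromal cells. In bulk tumour RNA, fewer cells of a type and less RNA per cell cannot be told apart.

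Promoters show the binding elements that many of these genes share, so the windows of a few are given before the values. RefSeq windows (GRCm38.p6, 250 bases before to 50 after a start site, 300 bases in all) were available for 24 of the 33 genes. An ISRE core, read as GAAANNGAAA on either strand, was found in a window of 9 of the 24 (37.5%), against 3.99% of all 27025 genes with a window. Of the 24 genes, 4 (Ifit1, Ifit3, Bst2 and Isg15) held at least 2 cores in a window. Counted by window, 9 of the 29 windows of these genes held a core, against 3.44% of all 32851 windows. At least 2 cores were held by 0.225% of all windows. A GAS core, read as TTCNNNGAA and the same on both strands, was found in 6 of the 24 (25%), against 9.55% of all genes. In Bst2 the GAS core overlapped an ISRE core, and in the other 5 genes it overlapped none. A match describes letters in a window and does not show a bound site. Only exact matches of the core were counted, so a window without one was not shown to lack an ISRE.

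The windows of Ifit1 and Ifit3, neighbours on chromosome 19, each hold a pair of ISRE cores, and that of Rsad2 on chromosome 12 holds 1. Bst2 on chromosome 8 has 2 overlapping cores, and Irf1 on chromosome 11 has a GAS core and no ISRE core. Their positions are chr19:34640639-34640938 on the plus strand for Ifit1 and chr19:34583279-34583578 on the plus strand for Ifit3. They are chr12:26456403-26456702 on the minus strand for Rsad2, chr8:71537423-71537722 on the minus strand for Bst2 and chr11:53769764-53770063 on the plus strand for Irf1. Capitals mark the ISRE cores in Ifit1, Ifit3, Rsad2 and Bst2, and the GAS core in Irf1. All are written along the strand of the gene, 5′ to 3′.
Ifit1: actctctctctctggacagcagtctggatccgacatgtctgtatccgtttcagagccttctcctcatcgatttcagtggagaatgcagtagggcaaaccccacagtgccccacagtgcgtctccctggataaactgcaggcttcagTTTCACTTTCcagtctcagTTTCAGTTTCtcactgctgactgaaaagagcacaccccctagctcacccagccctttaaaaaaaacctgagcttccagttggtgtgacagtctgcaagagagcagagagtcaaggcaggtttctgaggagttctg
Ifit3: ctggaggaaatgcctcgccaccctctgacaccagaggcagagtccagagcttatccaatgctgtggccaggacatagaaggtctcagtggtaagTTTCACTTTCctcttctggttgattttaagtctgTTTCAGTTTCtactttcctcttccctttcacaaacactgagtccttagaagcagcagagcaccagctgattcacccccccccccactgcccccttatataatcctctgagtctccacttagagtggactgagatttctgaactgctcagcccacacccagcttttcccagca
Rsad2: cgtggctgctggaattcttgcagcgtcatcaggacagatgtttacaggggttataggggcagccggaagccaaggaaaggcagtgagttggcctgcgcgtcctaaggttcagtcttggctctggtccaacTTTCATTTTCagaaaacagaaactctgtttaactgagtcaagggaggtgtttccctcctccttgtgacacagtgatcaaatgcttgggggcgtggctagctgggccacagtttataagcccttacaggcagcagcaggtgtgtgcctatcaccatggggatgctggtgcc
Bst2: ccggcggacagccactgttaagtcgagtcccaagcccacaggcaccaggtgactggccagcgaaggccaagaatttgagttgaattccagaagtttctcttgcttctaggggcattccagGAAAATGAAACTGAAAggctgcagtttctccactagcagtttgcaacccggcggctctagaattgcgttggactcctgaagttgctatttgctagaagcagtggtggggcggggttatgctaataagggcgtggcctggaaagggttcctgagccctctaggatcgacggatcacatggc
Irf1: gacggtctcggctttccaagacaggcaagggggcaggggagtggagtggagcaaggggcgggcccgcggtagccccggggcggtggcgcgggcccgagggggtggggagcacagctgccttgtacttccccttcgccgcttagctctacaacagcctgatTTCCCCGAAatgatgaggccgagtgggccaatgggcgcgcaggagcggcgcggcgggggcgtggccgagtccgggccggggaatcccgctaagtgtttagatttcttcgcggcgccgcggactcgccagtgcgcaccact

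Counted from the start site, with bases before it negative, the ISRE cores began at -104 and -85 in Ifit1, at -156 and -122 in Ifit3 and at -120 in Rsad2. In Bst2 they began at -130 and -124, and the GAS core of Irf1 began at -90. Single ISRE cores began at -222 in Stat2 and just after the start site in Ddx58, Eif2ak2 and Ifih1, at 2, 18 and 32.

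The comparison asks whether tumours in lactating hosts carry more or less of these transcripts. No member passed the test over all genes. The values leaned upward in lactation: 28 of the 31 genes had a positive difference, against 48.3% of the 11623 genes that passed the level filter. With each array centred on its median these were 26 of 31 and 34.7%. The median difference was 0.23 on the log2 scale, where that of all genes tested was -0.01. Much of this lean came from 1 tumour. Lactation replicate 2 gave the highest signal of the 6 arrays for 26 of the 31 genes, against 16% of genes tested. Without it 19 of 31 differences were positive, with a median of 0.05, and without lactation replicate 1 the count was 30 and the median 0.35.

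Of the 31 genes, 30 passed the level filter, which asked for a signal at or above the array median on at least 3 arrays, and Mx2 did not. In limma with Benjamini-Hochberg adjustment over all genes tested, 0 of the 30 had an adjusted p under 0.05, as did 0 (0%) of the 11623. The lowest adjusted p among the 30 was 1. At an unadjusted p under 0.05, 4 of the 30 were higher (Irf1, Dtx3l, Cmpk2 and Rtp4), against 1.51% of genes tested. None of the 30 was lower at that level, against 0.766%. Over all genes such calls numbered 175 higher and 89 lower, and 109 higher and 125 lower when each array was centred on its median, where 1 of the 30 was counted. Lactation and control signals did not overlap for 2 of the 31, Irf9 and Dtx3l, both higher, against 3.71% of genes tested, and 0 of 31 were lower without overlap, against 3.19%. Leaving out lactation replicate 1 raised the first count to 13 (9.62% of genes tested), leaving out control replicate 3 gave 10 (7.49%), and control replicate 2 gave 4 (6.74%). The count of the 30 at an unadjusted p under 0.05 was 0 without lactation replicate 2, against 412 of the 11623 genes tested. It was 0 without lactation replicate 3 (against 137 of 11623) and 7 without lactation replicate 1 (against 385). Without control replicate 1 it was 1 (against 652), and without control replicate 2 it was 2 (against 204). Without control replicate 3 it was 4 (against 241). Differences above the filter ranged from -0.05 to 0.47, and none reached 2-fold. The median standard error of a difference was 0.17 for these genes and 0.14 for all.

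**Figure D1:**
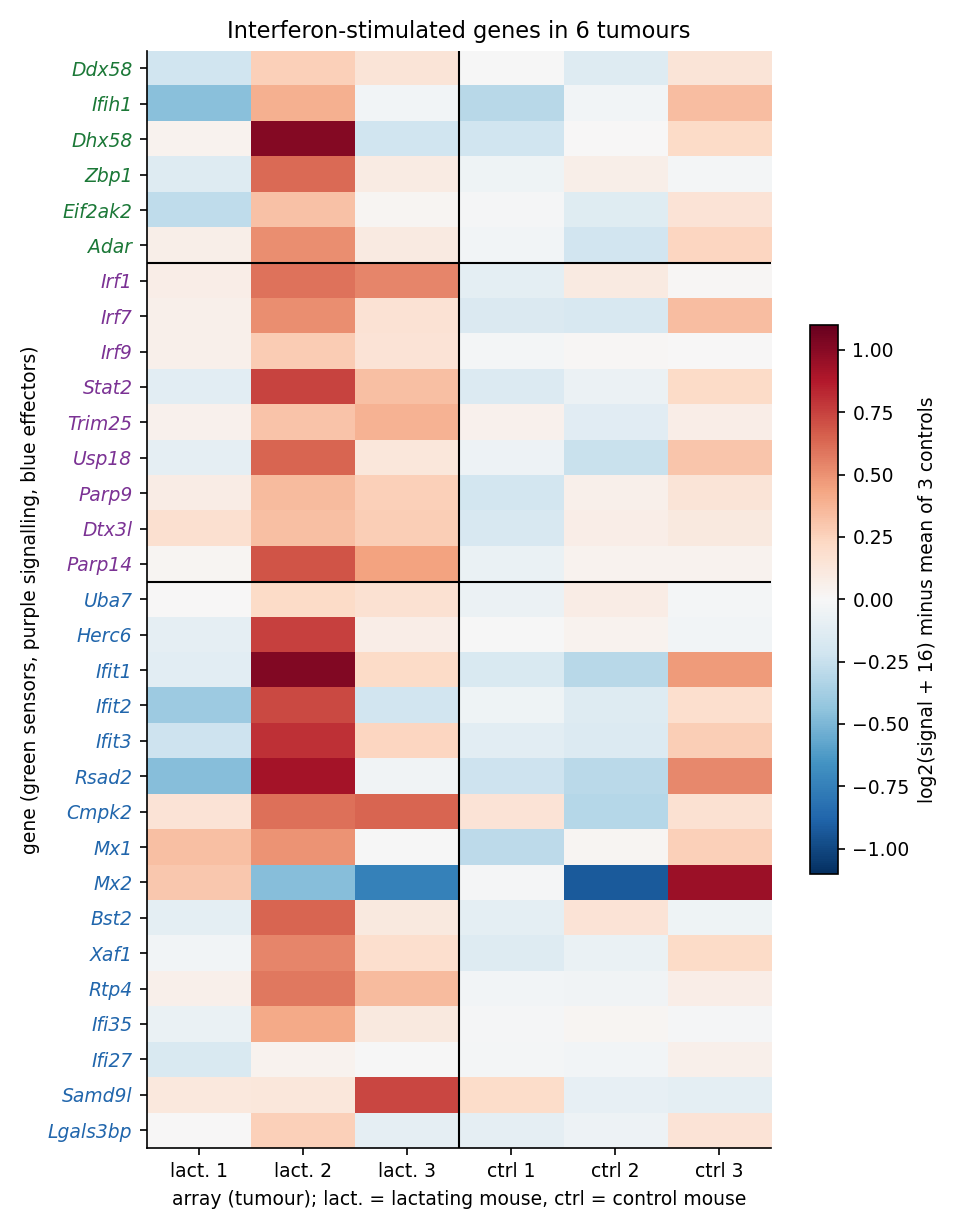
Colour gives log2(signal + 16) of each of 31 genes (rows, grouped by role) on each of 6 arrays (columns), minus the mean of the 3 control arrays of that gene. Lactation replicate 2 is the reddest column, the highest array for 26 of 31 genes, and control replicate 3 is the reddest control column, the highest control for 22.

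The sensors had the lowest median difference of the 3 roles. Their 6 differences ranged from -0.03 to 0.28 with a median of 0.13, and 0 of 6 passed over all genes. All 6 were highest on lactation replicate 2. Without that array 1 of 6 differences was positive and the median was -0.07.

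Ddx58 encodes RIG-I, which detects RNA with a triphosphate end. Its signal was 1090.4, 1526 and 1398 on lactation replicates 1, 2 and 3, and 1269, 1146 and 1406 on control replicates 1, 2 and 3. The groups overlapped, with the lowest value in lactation replicate 1. The log2 difference was 0.06 with a 95% interval from -0.28 to 0.41. Its other probe sets gave 0.07 and 0.27, and the mean of its probe sets gave 0.14.

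Ifih1 encodes MDA5, the sensor of long double-stranded RNA. It measured 530.1, 969 and 717 in lactation and 592, 717 and 929.9 in controls. Lactation replicate 2 and control replicate 3 were the 2 high tumours, and the difference was -0.03 (interval -0.61 to 0.55). Without lactation replicate 1 it was 0.18, and without lactation replicate 2 it was -0.24. Dhx58 encodes LGP2, a relative of these helicases without signalling domains. It measured 199, 406 and 164 against 164, 195 and 227 in controls. Here a single tumour, lactation replicate 2, lay above the other 5, and the difference of 0.28 was -0.09 without it. The 2 other probe sets of Dhx58 lay below the array median on all 6 arrays, with differences of -0.08 and 0.25.

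Zbp1, a sensor of Z-form nucleic acid that can start necroptosis, measured 879, 1502 and 1034 in lactation and 941, 1018 and 956 in controls. Its difference was 0.19 (interval -0.26 to 0.63) and -0.03 without lactation replicate 2, and its other probe set gave 0.20. Eif2ak2 encodes PKR, a kinase that halts translation when it binds double-stranded RNA. It measured 597, 915 and 739 against 721, 661 and 810.3, a difference of 0.02, and -0.13 without lactation replicate 2. Its other probe sets gave -0.02 and 0.02. Adar, an editor of double-stranded RNA that limits sensing by MDA5, measured 1028, 1405 and 1049.7 against 963, 847 and 1160.1. Its difference of 0.22 had an interval from -0.17 to 0.61 and was 0.08 without lactation replicate 2 and 0.34 without control replicate 3. The 2 other probe sets gave 0.19 and 0.13.

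Signalling factors and regulators had positive differences in all 9 genes, from 0.16 to 0.40 with a median of 0.25, and 0 of 9 passed over all genes. All 9 were also positive without lactation replicate 2, with a median of 0.17, and when any other single array was left out. Lactation replicate 3 lay above every control for 7 of the 9, where this was so for 1 of 6 sensors, 6 of 16 effectors and 24.9% of genes tested. Without lactation replicate 1 the median difference was 0.25 for sensors, 0.35 for signalling genes and 0.37 for effectors. The differences between these roles were not tested.

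Irf1, a transcription factor induced mainly by interferon gamma through its GAS element, had the largest difference of the 9. Its signal was 3571, 5134 and 4915 on lactation replicates 1, 2 and 3 and 3139, 3621 and 3412 on the controls. Means were 4540.0 ± 847 and 3390.4 ± 242 (SD, n = 3 per group), which is 0.40 on the log2 scale (standard error 0.15, interval 0.06 to 0.75). The limma p was 0.0268 before adjustment and 1 after it. Lactation replicates 2 and 3 lay above all controls, while lactation replicate 1 lay among them. The difference was 0.31 without lactation replicate 2 and 0.57 without lactation replicate 1.

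Irf9 encodes the DNA-binding part of ISGF3. It measured 1281, 1499.5 and 1365 in lactation and 1215, 1241 and 1235 in controls, so the groups did not overlap. The difference was small, 0.16 with an interval from -0.05 to 0.37 (0.10 without lactation replicate 2), and limma's adjusted p was 1. Stat2, another part of ISGF3, measured 259, 482 and 357 against 252, 269 and 328. The difference of 0.32 was 0.11 without lactation replicate 2 and 0.54 without lactation replicate 1, and the other probe set of Stat2 gave 0.18. Irf7, which amplifies interferon alpha production, measured 1196, 1644 and 1287 against 1025, 1017 and 1455. Control replicate 3 lay between the lactation values, and the difference of 0.24 was 0.41 without it and 0.11 without lactation replicate 2.

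Dtx3l, an E3 ubiquitin ligase, and Parp9, its binding partner, are neighbouring genes. Dtx3l measured 2242, 2495 and 2391 in lactation and 1752, 2080.4 and 2129.9 in controls. The groups did not overlap, the difference was 0.26 with an interval from 0.02 to 0.50, and p was 0.036 in limma before adjustment and 1 after it. The other probe set of Dtx3l also had groups that did not overlap, with a difference of 0.31. Without control replicate 1 the difference of Dtx3l was 0.17. Parp9 measured 2229, 2687 and 2525 against 1823, 2189.6 and 2326. Lactation replicate 1 lay below control replicate 3, and the difference was 0.23 (interval -0.05 to 0.51), or 0.13 without control replicate 1. Parp14, an ADP-ribosyltransferase of the same family, measured 1351, 2169 and 1821 against 1269.8, 1368 and 1367. Its difference was 0.39 (interval -0.01 to 0.78), and 0.23 without lactation replicate 2, and its other probe set gave 0.35 with overlapping groups.

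Trim25, a ubiquitin ligase that takes part in RIG-I activation, measured 2723, 3274 and 3429.6 against 2713, 2419.7 and 2776. Lactation replicate 1 lay just under control replicate 3, and the difference was 0.25 (interval -0.01 to 0.51). The 2 other probe sets of Trim25 had groups that did not overlap, with differences of 0.31 and 0.47. Usp18, which removes ISG15 from proteins and dampens receptor signalling, measured 1160.3, 1950.2 and 1359.7 against 1195, 1049 and 1543. The groups overlapped, and its difference of 0.22 was 0.01 without lactation replicate 2.

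**Figure D2:**
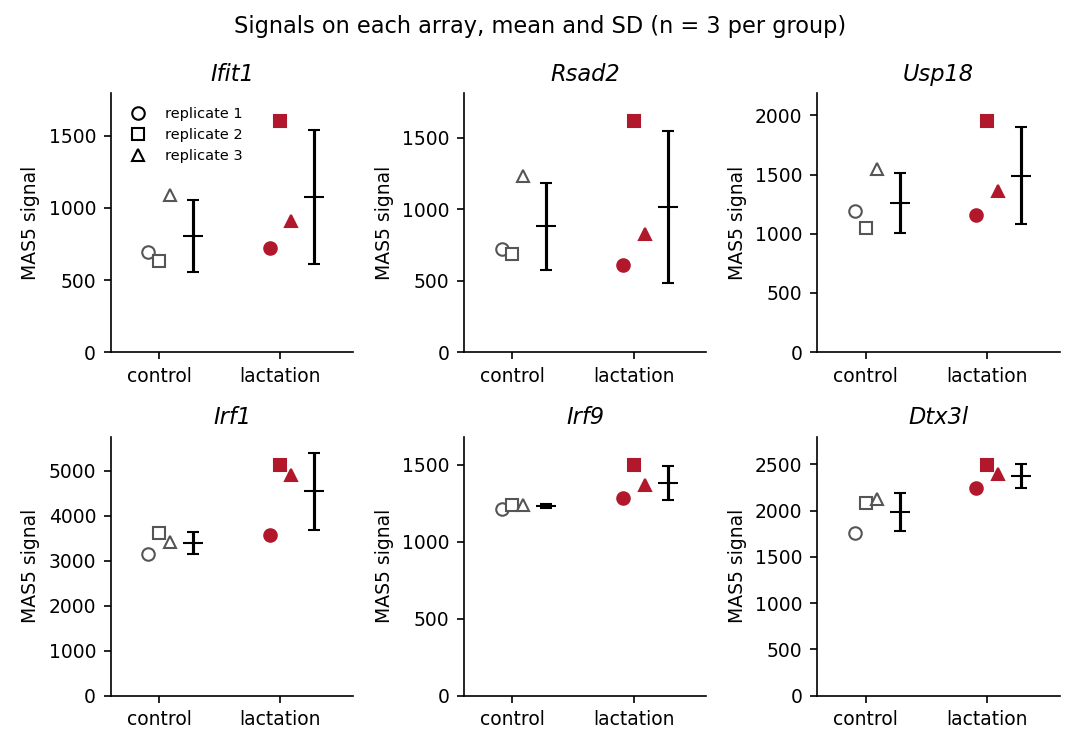
Points are MAS5 signals (vertical axis, from 0) of 6 genes on the 3 control and 3 lactation arrays, with the mean and SD beside them. Ifit1, Rsad2 and Usp18 have lactation replicate 2 and control replicate 3 at the top of their groups; Irf9 and Dtx3l have groups that do not overlap, and Irf1 has 2 lactation arrays above all controls.

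Effectors above the filter had differences from -0.05 to 0.47. Of all 16, 14 were positive, with a median of 0.22, and 0 of the 15 above the filter passed over all genes. Lactation replicate 2 was highest for 12 of the 16. Without it 9 of 16 differences were positive and the median was 0.01.

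The IFIT proteins bind foreign RNA caps and ends, and their genes lie side by side. Ifit1 measured 719.7, 1601 and 907 on lactation replicates 1, 2 and 3, and 696, 629 and 1089 on the controls. Lactation replicate 2 was highest by far, and control replicate 3 came second. Means were 1076 ± 464 and 805 ± 249 (SD, n = 3 per group), and the difference was 0.37 with an interval from -0.39 to 1.13. It was 0.05 without lactation replicate 2 and 0.61 without lactation replicate 1. Ifit2 measured 634, 1404 and 724 against 814, 764 and 962, a difference of 0.04. Without lactation replicate 2 both lactation tumours lay below all controls, and the difference was -0.31. The share of all genes that were lower in this way was not counted. Ifit3 measured 744, 1537 and 1031 against 805, 787 and 1058, a difference of 0.27, and 0.00 without lactation replicate 2. Ifit3 has a closely similar copy in the mouse genome, and whether its probe set shares signal with it was not tested.

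Rsad2 encodes viperin, an antiviral enzyme that makes a chain-terminating nucleotide, and Cmpk2, a nucleotide kinase, lies next to it. Rsad2 measured 608, 1617 and 827 in lactation and 721, 687 and 1233 in controls. Its order over the tumours was that of Ifit1 at the top: lactation replicate 2, then control replicate 3. The difference was 0.14 (interval -0.75 to 1.02), -0.25 without lactation replicate 2 and 0.44 without lactation replicate 1. The 2 other probe sets of Rsad2 gave 0.12 and 0.24. Cmpk2 had the largest difference of all 31 genes, at signals of 436, 606 and 619 against 435, 311 and 443. It was 0.47 with an interval from 0.01 to 0.92, and p was 0.0462 in limma before adjustment and 1 after it. Lactation replicate 1 lay between the controls in level. The difference was 0.31 without control replicate 2, the lowest of the 6, and the other probe set of Cmpk2 gave 0.50 with groups that did not overlap.

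The enzymes of ISG15 conjugation had positive differences. Uba7, which activates ISG15, measured 959, 1108 and 1074 against 914, 1015 and 943, a difference of 0.13 (interval -0.10 to 0.35), and 0.08 without lactation replicate 2. Its 2 other probe sets gave 0.28, with groups that did not overlap, and 0.21. Herc6, the ligase that transfers ISG15 in mice, measured 464, 851 and 524 against 495, 510.4 and 488. A single tumour, lactation replicate 2, stood apart there, and the difference of 0.24 was -0.01 without it. Its 3 other probe sets gave 0.26, 0.00 and 0.31. The groups of the last did not overlap, at 191, 225 and 182 against 156, 170.1 and 146.

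Mx1, a dynamin-like GTPase active against influenza viruses, measured 306, 343 and 238 against 193, 244 and 291, a difference of 0.27 (interval -0.20 to 0.75), and 0.13 without control replicate 1 or 0.41 without lactation replicate 3. Mx2, its cytoplasmic relative, was dim, at 53.3, 24.8 and 17.6 against 39.7, 13.7 and 92.2, under the array median on each array. Array medians lay between 99.3 and 111.0. The difference of Mx2 was -0.30, with no order between the groups, and 0.17 without control replicate 3 or -0.77 without control replicate 2.

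Rtp4, a receptor transporter protein with antiviral activity, measured 2397, 3461 and 2935 against 2253, 2243 and 2429. Lactation replicates 2 and 3 lay above all controls and lactation replicate 1 lay just under control replicate 3. The difference was 0.33 with an interval from 0.01 to 0.65, p was 0.0453 in limma before adjustment and 1 after it, and it was 0.20 without lactation replicate 2. The other probe set of Rtp4, at or above the array median on 1 array only, gave 0.60 with groups that did not overlap. Bst2 encodes tetherin, which holds budding virions at the membrane and also marks plasmacytoid dendritic cells in mice. It measured 2269.9, 3811 and 2629 against 2266, 2719 and 2367. The difference of 0.21 came to 0 within rounding (-4e-05) without lactation replicate 2. Xaf1, a promoter of apoptosis, measured 2028, 3002 and 2354 against 1877, 1964 and 2398, a difference of 0.23, and 0.08 without lactation replicate 2. The other probe set of Xaf1, at or above the array median on 2 arrays, gave 0.47 with overlapping groups. Ifi35 measured 3565, 5008 and 4025 against 3717, 3808 and 3711, a difference of 0.15, and 0.02 without lactation replicate 2. The 2 other probe sets of Ifi35 gave 0.07 and 0.10.

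Samd9l, a restriction factor of poxviruses, was highest on lactation replicate 3, as were Trim25 and Cmpk2. It measured 4616, 4661 and 7084 against 4896, 4005 and 3949.6 in controls. Lactation replicate 2 lay below control replicate 1. The difference of 0.32 (interval -0.10 to 0.75) was 0.42 without lactation replicate 2 and 0.12 without lactation replicate 3. Ifi27 measured 3058, 3526 and 3422 against 3381, 3362 and 3569, a difference of -0.05 (interval -0.24 to 0.15). With arrays centred on their medians its groups did not overlap, with lactation lower. In that setting 34.7% of genes tested had a positive difference, and the share lower without overlap was not counted. The other probe set of Ifi27 gave -0.01. Lgals3bp, a secreted glycoprotein that binds galectin-3, measured 3601, 4310.0 and 3352 against 3342, 3454 and 3981, a difference of 0.06 (interval -0.22 to 0.34).

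**Figure D3:**
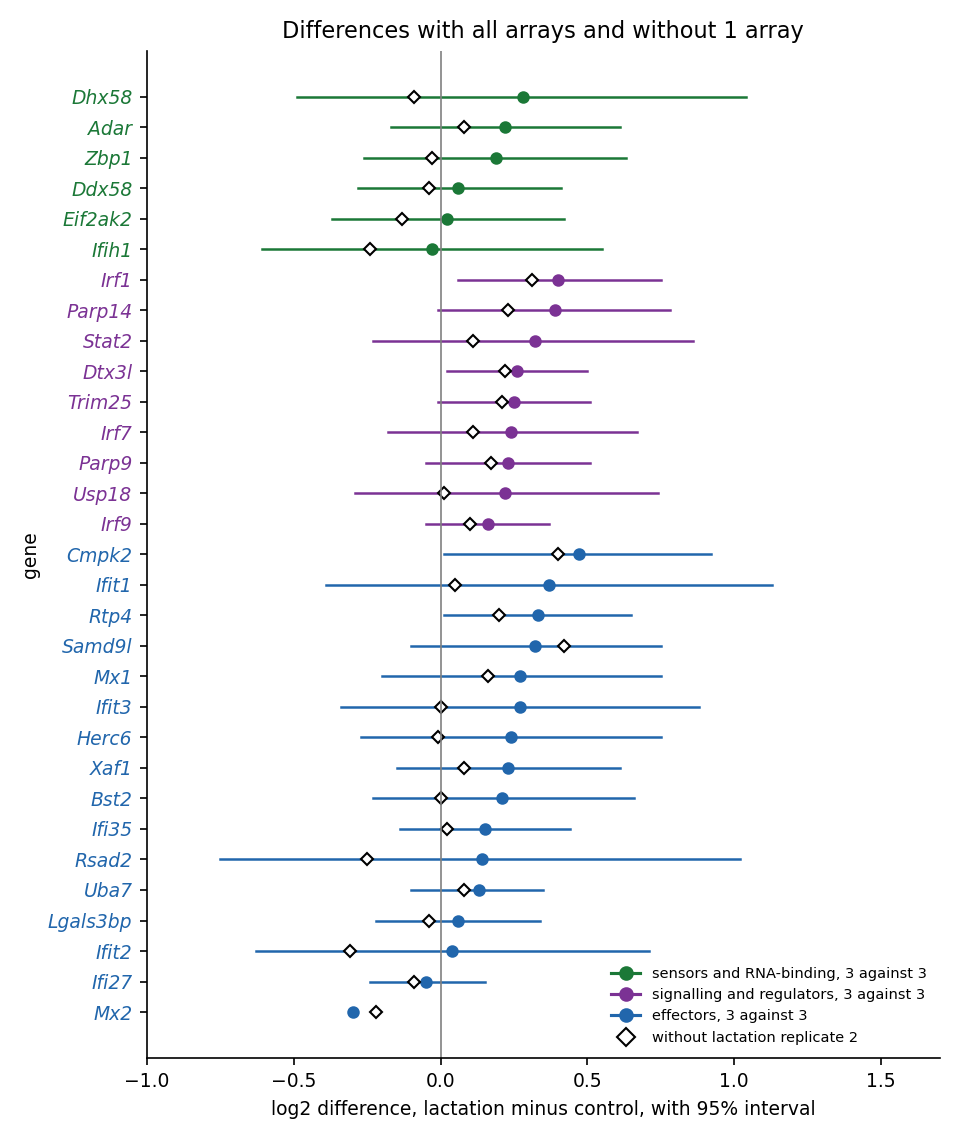
Filled points give the log2 difference (lactation minus control, horizontal axis) of each gene with all 6 arrays, and lines its 95% interval from limma; Mx2 was below the filter and has no interval. Open diamonds give the difference without lactation replicate 2: all 9 signalling genes are above 0, while 5 of 6 sensors lie below it.

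The level of these genes on each tumour is given next. On lactation replicate 2 the median of the 31 genes lay 0.51 above the control mean on the log2 scale, and 28 of 31 were above all controls, against 22.4% of genes tested. On lactation replicate 3 the median was 0.14 and 14 of 31 were above all controls, against 24.9%. On lactation replicate 1 it was 0.00, 3 of 31 were above all controls, against 22.8%, and 10 of 31 had their lowest value of all 6 arrays there, against 14.7% of genes tested. The lowest value was on control replicate 1 for 11 (against 14.6%), on control replicate 2 for 8 (against 16.5%), and on control replicate 3 for 1 (against 20.4%). Among controls, replicate 3 was the highest for 22 of 31, against 35.2% of genes tested, with a median of 0.15, and replicates 1 and 2 had medians of -0.06 and -0.05. Control replicate 3 lay above both lactation replicates 1 and 3 for 15 of 31 genes, against 36.8% of genes tested. Over all 11623 genes the median lay between -0.01 and 0.01 on each array, and 22.1% of genes were highest on control replicate 3, where 2 of the 31 were. Lactation replicate 3 was highest for 3 of the 31, against 17%. Of the 27 other probe sets of these genes, 23 had a positive difference, 21 were highest on lactation replicate 2, and 7 had groups that did not overlap, all 7 higher in lactation. Over the 16764 other probe sets of all genes, with no level filter, these shares were 50.9%, 18.8% and 4.34%.

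Of the 9 genes with an ISRE core in the window, 8 had values: Ddx58, Ifih1, Eif2ak2, Stat2, Ifit1, Ifit3, Rsad2 and Bst2. All 8 were highest on lactation replicate 2, where their median lay 0.69 above the control mean, and it was -0.22 on lactation replicate 1 and 0.24 on control replicate 3. Their differences between groups had a median of 0.17, and -0.02 without lactation replicate 2. The 14 genes with a window and no ISRE core had medians of 0.46, 0.05 and 0.09 on those arrays, and 11 of the 14 were highest on lactation replicate 2. All 14 had a positive difference, with a median of 0.24 and 0.09 without lactation replicate 2. Among genes outside the set, 351 tested genes had an ISRE core in a window. Of these, 22.2% were highest on lactation replicate 2, against 15.2% of 9026 tested genes with a window and no core. Their median difference between groups was 0.01, and 17 of 351 (4.84%) had groups that did not overlap with lactation higher, against 3.65% of the 9026. No test was made of these shares.

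**Figure D4:**
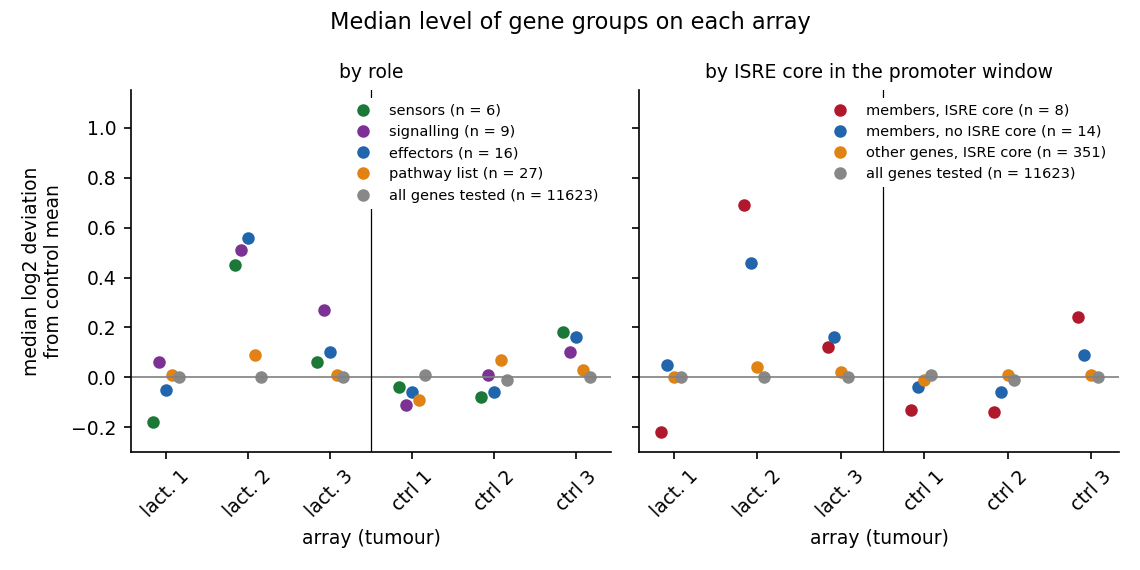
Each point is the median, over the genes of a group, of log2(signal + 16) minus the control mean on 1 array; the left panel groups genes by role and the right panel by an ISRE core in the promoter window. Lactation replicate 2 is highest for sensors, signalling factors and effectors (0.45, 0.51 and 0.56). The 8 genes with an ISRE core reach 0.69 there, and the 14 with a window and no core reach 0.46.

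Genes that produce, receive and transmit interferon signals had differences centred near 0. Of a list of 41 such genes, 34 had a probe set of their own and 27 passed the level filter. None of the 27 passed over all genes, and 0 had an unadjusted p under 0.05 in limma. Of the 27, 16 had a positive difference, against 48.3% of genes tested, and the median was 0.01. Lactation replicate 2 was the highest array for 9 of the 27, against 16% of genes tested. On that array 11 of the 27 lay above all controls, against 22.4%. Groups did not overlap for 1 of the 27, Jak2, a kinase of the interferon gamma receptor, with a difference of 0.15, against 3.71% of genes tested. Of the 7 genes below the filter, Tlr9, an endosomal DNA receptor, was lower in lactation without overlap, at 19.3, 6.5 and 10.7 against 55, 65.3 and 21.3, all under the array medians. Among genes tested 3.19% were lower without overlap, and the share among genes below the filter was not counted. Jak2 and Tlr9 are named after their values were seen. Interferon transcripts themselves were dim. Ifnb1, interferon beta, measured 27.6, 47.3 and 46.2 in lactation and 39, 33 and 23.2 in controls, all below the array medians. Ifng, interferon gamma, measured 49.9, 73.6 and 80 against 29, 79.9 and 60.6. All 6 values of Ifng were also below the array medians, both genes had overlapping groups, and no fold is drawn at this level.

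The receptor chains Ifnar1 and Ifnar2 had differences of -0.07 (interval -0.33 to 0.19) and -0.22 (interval -0.51 to 0.07). Ifnar2 was lowest on lactation replicate 3, at 1267, and highest on control replicate 2, at 1886. The interferon gamma receptor chain Ifngr1 had 0.05, and the kinases Jak1 and Tyk2 had -0.09 and 0.12. Irf3 and Mavs, which carry the signal from sensors to interferon genes, had -0.01 and 0.00, and Socs1, a feedback inhibitor, had 0.05. The largest difference on the list above the filter was that of Ifnlr1, the interferon lambda receptor, at 147, 273 and 247 in lactation and 192, 117 and 177 in controls. It was 0.41 with an interval from -0.25 to 1.07. Tlr3, an endosomal receptor of double-stranded RNA, measured 607, 892 and 926 against 710.4, 566 and 547, a difference of 0.39 (interval -0.06 to 0.83).

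Summed markers of the cell types the tumours could hold are given beside the values of the interferon genes. Ductal epithelial markers were present as the label implies, 8 of 8 above the filter and with positive differences, with summed signals from 64885 to 90764 in lactation and from 61277 to 75771 in controls. Lactation replicate 2 was the lowest of its group, at 64885. The 8 macrophage markers summed to 31254 to 45642 in lactation and 43338 to 51340.0 in controls, with 0 of 8 differences positive and 45642 on lactation replicate 2. Plasmacytoid dendritic cell markers summed to 9011 to 9500.2 and 9223 to 11875, with the lowest sum on lactation replicate 2. The defining markers Siglech, Ccr9, Spib and Pacsin1 were below the filter. T cell markers (6 of 6 with a probe set, Cd4 below the filter) summed to 1205 to 1654 and 1129.9 to 2278, and natural killer markers (5 of 6, Ncr1 below the filter) to 1193 to 1533 and 992 to 1628. Neutrophil markers (4 of 6, all above the filter) summed to 4874 to 7799 in lactation and 3665 to 5463 in controls. B cell markers (4 of 5, of which 1 passed) had their highest sum, 562, on lactation replicate 2, where the other arrays ranged from 329 to 514. Fibroblast markers summed to 71389 to 81173 and 68424 to 98303, and endothelial markers to 2638 to 2801 and 2309 to 3854. On lactation replicate 2 the sums were 1508 for T cell, 1533 for natural killer, 4874 for neutrophil, 80477 for fibroblast and 2801 for endothelial markers. Differences were positive for 2 of 8 plasmacytoid, 2 of 6 T cell, 4 of 5 natural killer and 1 of 4 B cell markers. They were positive for 3 of 4 neutrophil, 1 of 6 fibroblast and 1 of 6 endothelial markers. No marker was listed at 0, no marker of these 9 lists passed over all genes, and their part in the interferon gene values was not tested.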

How the data were processed

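Total RNA from 6 tumours was hybridised to Affymetrix arrays as biotin-labelled cRNA, per the labels' protocols. Per the submitters' processing notes, MAS5 gave the deposited intensity values; its version and any genome build are not given in the sources used here. Values are linear, and each array had a 2% trimmed mean of 500.0, which shows scaling before deposit. No scanner file or detection call was used.

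Probe sets were named from the platform annotation and checked against RefSeq genes by Entrez identifier, which changed 0 symbols: 34958 of 45101 had 1 gene, 932 several and 9211 none. Values were taken as log2(signal + 16), so folds of dim genes are understated. The highest-mean probe set stood for each gene, and genes at or above the array median on at least 3 arrays were tested in limma 3.58.1 (under R 4.3.3), with lmFit, a trended eBayes and group as the only term. Intervals are 95% intervals from that fit, and the threshold was an adjusted p of 0.05. The fit was tested on simulated data. Tables and figures used pandas 2.3.3, matplotlib 3.10.9 and numpy 2.4.6 (Python 3.11.15).

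The 33 genes, their roles, the other lists and the motifs were chosen with earlier results of these data known, so no score or list was tested and no p was adjusted over a list. Every member is named. Of the pathway list, Ifnb1, Ifnar1, Ifnar2, Jak1, Tyk2, Irf3, Mavs, Ifng, Ifngr1 and Socs1 are named whatever their values, with the 3 largest differences above the filter by size in either direction (Ifnlr1, Tlr3 and Ifnar2). List genes with no probe set of their own were not analysed here. Alternatives were quantile normalization, arrays centred on their medians, smaller and larger added constants, no filter, a stricter filter, averaged probe sets, other variance models, array weights, a replicate block and each array left out.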

Additional observations from a re-analysis of the deposited data

How the results depend on the processing

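No gene passed an adjusted p of 0.05 over all genes in limma under any alternative run, replicate block included, where 289 genes had an unadjusted p under 0.05 against 264 without it. The labels do not say that replicate numbers pair the tumours. Deviations of same-numbered arrays correlated at 0.14, -0.08 and 0.27, and those of differently numbered arrays at -0.47 to 0.46. The replicate block is therefore given here once. It changed no call at an adjusted p under 0.05, while 5 of the 30 genes had an unadjusted p under 0.05 in limma, against 4 without it. The count of positive differences ranged from 19 (without lactation replicate 2) to 30, and the median of the 31 differences from 0.05 to 0.35.

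The count of genes whose groups did not overlap was 4 with arrays centred on their medians (Irf1, Irf9 and Dtx3l higher, Ifi27 lower). Of genes tested, 2.02% were higher without overlap there, and the share lower without overlap was not counted. In that setting 34.7% of genes tested had a positive difference. With probe sets of a gene averaged the count was 5, all higher, against 4% of genes tested. With an array left out it ranged from 3 to 13, the 13 without lactation replicate 1, against 9.62% of genes tested. It was 10 without control replicate 3 (against 7.49%) and 4 without control replicate 2 (against 6.74%). Without lactation replicate 2 the count was 3, with 2 higher (against 9.74%) and Ifit2 lower, where the share lower was not counted. It was also 3, all higher, without lactation replicate 3 (against 6.21%) or control replicate 1 (against 11.4%). With centred arrays the difference of Eif2ak2 was -0.02 and that of Ifit2 -0.01.

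Sign changes with an array left out were these ranges: Ddx58 -0.04 to 0.20, Ifih1 -0.24 to 0.18, Dhx58 -0.09 to 0.52, Zbp1 -0.03 to 0.35, Eif2ak2 -0.13 to 0.17, Herc6 -0.01 to 0.41, Ifit2 -0.31 to 0.26, Rsad2 -0.25 to 0.44, Bst2 -4e-05 to 0.37, Mx2 -0.77 to 0.17, Ifi27 -0.09 to 0.02 and Lgals3bp -0.04 to 0.14. Why these moved was not tested. Signal over background limits Mx2 and the interferon transcripts.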
